A study of Mus musculus with 33 samples.

Results

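The comparison described here set livers in which MYC had been switched on for 4 days against wild-type livers that received the same virus. It comprised 10 of the 33 RNA-seq libraries of the series, 5 per group, chosen by their titles and genotype labels and by no measured value. MYC mice carried R26-lslMYC, a MYC transgene at the Rosa26 locus behind a stop cassette that Cre removes, and control mice were WT. Both groups were C57BL/6 mice of 6 to 8 weeks that received AAV8-TBG-CRE, an adeno-associated virus whose TBG promoter drives Cre in hepatocytes, and the livers were taken on day 4. The controls thus share the virus and Cre but not the transgene, and no liver without virus enters the comparison. RNA came from whole liver, so each value mixes hepatocytes with the other cells of the organ, and the share of hepatocytes that recombined is not given in the sources used here. The deposited unit is RPKM, reads scaled to gene length and library size, and 13273 of the 21671 genes were tested because their RPKM reached 1 in at least 3 of the 10 livers. The test was fitted together with 10 further AAV livers of the same age and day, which enter through the estimate of spread. Of these, 5 carried an activated β-catenin allele (beta-cat Ex3) and 5 carried that allele with MYC.

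MYC is a transcription factor that binds DNA as a dimer with MAX, at E-box sequences among others, and that mainly activates genes. It is best known for driving ribosome production, protein synthesis, nucleotide and polyamine synthesis and entry into the cell cycle. Adult hepatocytes are mostly quiescent and devote much of their RNA to plasma proteins and metabolic enzymes, which makes the liver a tissue in which a change toward growth is easy to see.

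The libraries held 4.38 to 6.69 M reads in genes (median 5.06 M) and 15916 to 18145 detected genes. Alb, the main hepatocyte marker, was between 203 and 303 RPKM in every liver. Very abundant genes were flattened in the deposited values. Across livers of a group, the reads of the 50 most abundant genes grew by a median of 0.29 log2 units per log2 unit of depth, against 1.19 for genes beyond the top 200. Changes of the most abundant liver genes may therefore be understated. The 200 most abundant genes lay above about 161 RPKM, but this level does not mark where the flattening ends. Keratins of the epidermis (Krt5, Krt14 and Krt17 summed) reached 4.41 RPKM in MYC replicate 4 and 9.87 to 18.3 RPKM in WT replicates 2, 4 and 5, and at most 0.359 RPKM in the other 6. Xist and Ddx3y marked 3 of the 5 MYC livers and 2 of the 5 WT livers as male. MYC replicate 5 had the Xist level of a female (86.1 RPKM) together with Ddx3y at 4.74 RPKM, where the other Xist-high livers had at most 0.0490. Whether this library holds RNA of 1 animal alone was not tested, which bears on each of its values below, and 3485 genes were called without it against 3063 with it. Nothing in the labels ties these livers to litters, days or batches.

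The Myc gene itself was measured first. Its RPKM was 4.75, 3.12, 3.58, 3.72 and 4.81 in the MYC livers and 0.748, 2.71, 4.11, 2.98 and 2.30 in the WT livers. The groups overlapped, and the log2 change of 0.55 (SE 0.31) did not pass the test (limma adjusted p = 0.205). The labels do not give the species of the transgene, so whether its reads fall on the mouse Myc gene is unknown and this value does not check the labels. Mycn, a relative of Myc, was at most 1.93 RPKM in 9 livers and 9.43 RPKM in MYC replicate 5. Max, the partner of MYC, was 29.4 to 45.8 RPKM in the MYC livers and 19.4 to 22.9 RPKM in the WT livers. The ranges of Max did not overlap, and it rose by 0.87 on the log2(RPKM + 1) scale (SE 0.11, limma adjusted p = 2.12e-05). Of 13 tested genes of the MYC network, 4 rose and 1 fell. The other risers were Mxd3 (1.51), Mxi1 (0.48) and Mga (0.41), which compete for MAX, and Mycl fell by 0.71. Mxi1 and Mga did not pass after rescaling each library by its median ratio or in the keratin-free livers alone (4 MYC, 2 WT), and Mycl did not pass in 5 of the 10 fits that left out 1 liver (without MYC replicate 1 or 4 or WT replicate 2, 3 or 5; adjusted p up to 0.0983). Mnt (0.32) and Mxd4 (0.02), further partners of MAX, did not pass.

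MYC livers differed from wild type at 3063 genes at a limma adjusted p under 0.05, 23.1% of those tested. Of these, 2317 were higher (17.5% of genes tested) and 746 were lower (5.62%), so 75.6% of calls were rises. After rescaling each library by its median ratio the rises made up 58.8% of 3188 calls, with 1874 higher and 1314 lower. At least a 2-fold change was reached by 793 of the rises and by 74 of the falls. All 5 MYC livers lay above all 5 WT livers at 1476 genes (11.1%) and below them at 328 (2.47%). The number of falls rested partly on MYC replicates 1 and 4: 445 genes fell without replicate 1 and 417 without replicate 4. All changes below are differences of log2(RPKM + 1), and adding 1 makes the change of weakly expressed genes look smaller than it is. RPKM are shares of a library, and in bulk RNA fewer cells of a type and less RNA per cell cannot be told apart.

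**Figure D1:**
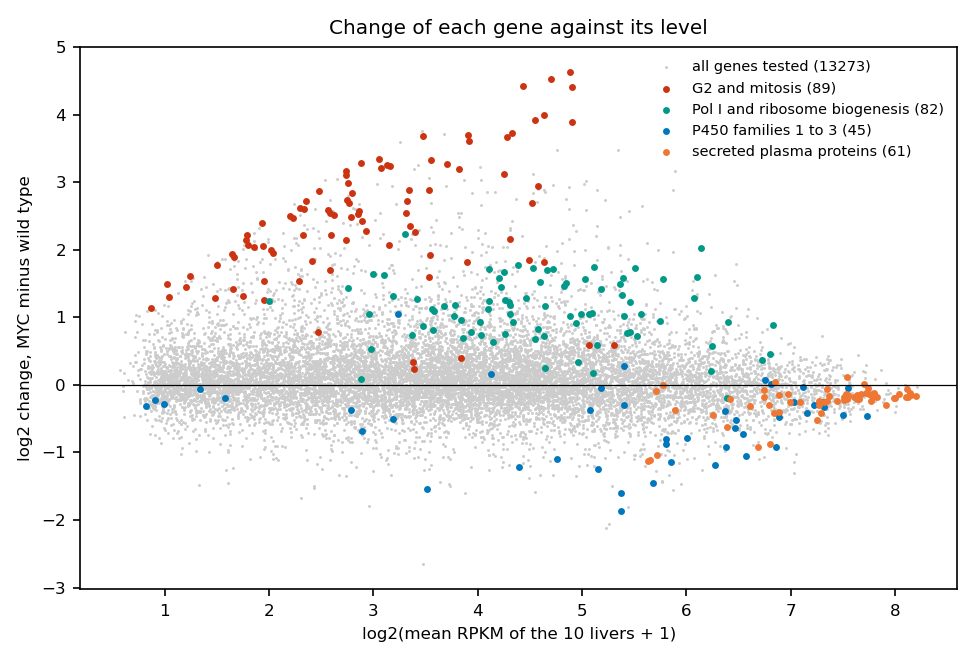
Each point is 1 of the 13273 tested genes, with the mean level over the 10 livers on the x axis (log2) and the log2 change from wild type to MYC on the y axis; colours mark 4 gene lists. The G2 and mitosis genes lie highest, with a median change of 2.48, the ribosome biogenesis genes around a median of 1.07, and the plasma protein genes sit at the right, near the top of the scale, at a median of -0.19.

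Gene lists were described by how many of their tested members passed and by their median change, to be read against the 17.5% of all tested genes that rose, the 5.62% that fell and the overall median of 0.07. Counts from other fits are to be read against all 13273 genes in the same fit. These were 1874 higher and 1314 lower after rescaling, and 946 higher and 304 lower in the keratin-free livers. They were 1850 higher and 417 lower without MYC replicate 4, and 2509 and 976 without MYC replicate 5. With all livers the highest shares of rises were in lists for mitosis, DNA replication and ribosome production. The highest shares of falls were in lists for pericentral hepatocyte genes and cholesterol synthesis.

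**Figure D2:**
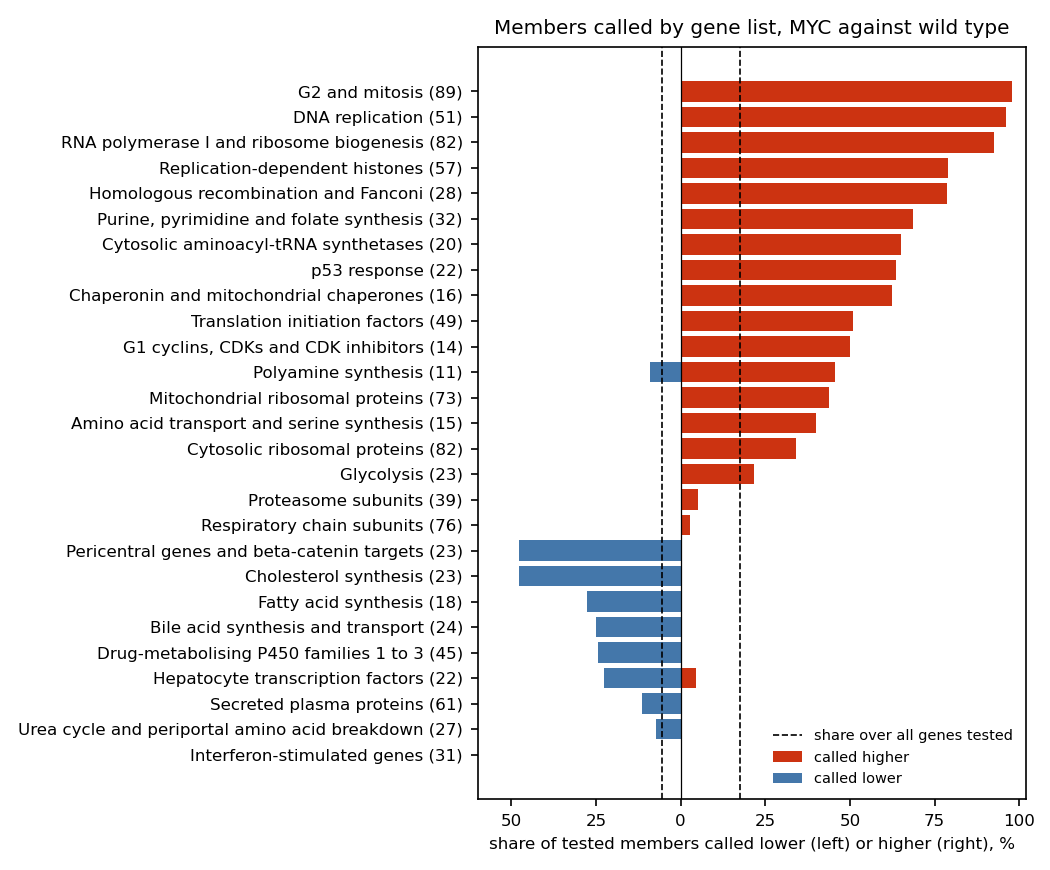
Bars give the percentage of tested members of each gene list (number of members in brackets) called lower (blue, left) or higher (red, right) in MYC livers at a limma adjusted p under 0.05; dashed lines mark the shares over all genes tested, 5.62% lower and 17.5% higher. The bars for G2 and mitosis, DNA replication and ribosome biogenesis each cover more than 90% of members, while interferon-stimulated genes have no bar.

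Most genes of ribosome production rose. Of 82 tested genes for RNA polymerase I and ribosome biogenesis, 76 rose, none fell, and 65 did not overlap between the groups, with a median change of 1.07. Nop56, a core protein of the small nucleolar particles that guide methylation of ribosomal RNA, was 140, 113, 97.8, 143 and 70.1 RPKM in the MYC livers and 28.8, 20.9, 31.4, 27.1 and 23.0 RPKM in the WT livers. The lowest MYC liver exceeded the highest WT liver more than the WT livers differed among themselves, and the change was 2.03 (SE 0.16, limma adjusted p = 3.39e-07). Ncl, nucleolin, was 41.2 to 98.3 RPKM against 15.3 to 24.2 RPKM and rose by 1.58 (adjusted p = 1.19e-05). Polr1b, the second largest subunit of RNA polymerase I, rose from a mean of 7.85 ± 1.44 to 28.4 ± 10.6 RPKM (SD, n = 5), a change of 1.67. Cd3eap (1.71) and Polr1e (1.62), further parts of that polymerase, also rose, as did its factors Rrn3 (0.59) and Ubtf (0.68). Among factors that process and assemble the 2 subunits, Rrp1b (2.23), Ppan (1.78), Nop2 (1.74), Grwd1 (1.74), Rrp9 (1.71) and Bop1 (1.02) rose. Dkc1, the pseudouridine synthase of the box H/ACA particles, rose by 1.74 and Nolc1, its nucleolar chaperone, by 1.72. Npm1, nucleophosmin, and Gnl3, nucleostemin, rose by 0.88 and 1.29. In each leave-one-out fit 70 to 78 of the 82 genes rose, and 59 rose among the keratin-free livers.

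The proteins of the ribosome itself rose in part. Of 82 tested cytosolic ribosomal protein genes, 28 rose, with a median change of 0.30. Among these 82, 18 were within the 200 most abundant genes, and over 79 of them reads grew by a median of 0.46 log2 units per log2 unit of depth, so their changes may be understated. That count was 9 after rescaling, 2 in the keratin-free livers, 11 without MYC replicate 4 and 53 without MYC replicate 5. Rps16 rose by 1.09 and Rpl34 by 0.80, and these 2 kept their calls in the keratin-free livers. Among 73 mitochondrial ribosomal proteins 32 rose (median 0.38), 17 after rescaling, 3 in the keratin-free livers, 20 without MYC replicate 4 and 50 without MYC replicate 5. Mrpl19 (1.15) and Mrps6 (0.98) had the largest changes there. The list mean of the cytosolic ribosomal proteins was 6.33 to 7.02 log2(RPKM + 1) in the MYC livers and 6.22 to 6.48 in the WT livers, with MYC replicate 5 inside the WT range.

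Genes that load and start translation rose in part. Of 20 cytosolic aminoacyl-tRNA synthetases 13 rose, with a median of 0.59, and 7 did so in the keratin-free livers. Vars, which charges valine, had 26.4 to 52.9 RPKM in the MYC livers against 6.90 to 11.1 RPKM in the WT livers, a change of 1.90. Farsa (0.96), Iars (0.83) and Kars (0.76) also rose. Among 49 translation initiation factors 25 rose (median 0.39), 17 after rescaling and 7 in the keratin-free livers. Eif4e, the protein that binds the mRNA cap, was 60.5, 46.8, 55.7, 84.0 and 47.8 RPKM in the MYC livers and 29.1, 31.0, 23.6, 35.9 and 34.9 RPKM in the WT livers. It rose by 0.89 without overlap (adjusted p = 6.78e-05). Eif2b3 (0.96) and Eif3b (0.72) were further examples. Of 16 chaperonin and mitochondrial chaperone genes 10 rose, led by C1qbp (1.17), and 7 of the 10 were subunits of the CCT ring that folds actin and tubulin. The count was 5 after rescaling and 6 in the keratin-free livers. Hspd1, the mitochondrial chaperonin, had a change of 0.33 that did not pass (adjusted p = 0.0691), but it passed with a keratin term in the fit (0.45) and without MYC replicate 5 (0.41, adjusted p = 0.019).

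Enzymes that make nucleotides rose in both the purine and the pyrimidine pathway. Of 32 genes of purine, pyrimidine and folate synthesis 22 rose, 16 of them at least 2-fold, with a median of 0.99, and 22 or 23 rose in every leave-one-out fit. In purine synthesis Ppat (1.01), Gart (1.47), Pfas (1.45), Atic (1.53) and Adsl (1.33) rose. Impdh2, the rate-limiting enzyme on the way to GTP, was 122, 105, 90.2, 125 and 87.2 RPKM in the MYC livers and 36.7, 40.2, 49.0, 41.9 and 36.9 RPKM in the WT livers. Each MYC liver was higher than every WT liver, and the change was 1.34 (SE 0.12, adjusted p = 6.58e-07). In pyrimidine synthesis Cad, the enzyme of the first 3 steps, rose by 2.18, Dhodh by 1.13, Umps by 0.98 and Ctps, which makes CTP, by 2.48. The ribonucleotide reductase genes Rrm1 (2.04) and Rrm2 (2.76) and the thymidylate enzymes Tyms (1.13) and Tk1 (0.97) rose, as did the mitochondrial folate enzymes Mthfd1l (1.51) and Mthfd2 (1.52).

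Polyamine synthesis rose at the steps that build spermidine and spermine. Srm, spermidine synthase, was 95.1, 72.8, 66.2, 116 and 69.6 RPKM in the MYC livers and 20.0, 26.9, 17, 14.6 and 23.0 RPKM in the WT livers. The groups lay far apart, with a change of 1.99 (SE 0.21, adjusted p = 3.39e-06). Odc1, the first enzyme of the pathway and a textbook target of MYC, rose by 0.92 with 1 WT liver (88.9 RPKM) above the lowest MYC liver (83.4 RPKM), and did not pass in the keratin-free livers (0.46). Amd1 (0.83), Sms (0.93) and Mtap (1.41), which recycles the by-product of both synthases, rose, while Paox, which breaks polyamines down, fell by 0.71 but did not pass in 5 of 10 leave-one-out fits (without MYC replicate 1 or 4 or WT replicate 1, 2 or 3; adjusted p up to 0.104). In all 5 of the 11 tested genes rose.

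Supply routes changed in part. Of 15 genes for amino acid transport and serine synthesis 6 rose, 2 of 15 in the keratin-free livers. The 3 enzymes that make serine all did so: Phgdh by 2.44, Psat1 by 2.70 and Psph by 0.95. Phgdh ranged from 2.29 to 25.2 RPKM among the MYC livers and did not pass in the keratin-free livers. Slc1a5 (0.96), Slc7a1 (1.06) and Slc3a2 (0.46), carriers of glutamine, basic amino acids and large neutral amino acids, rose, and Slc7a5 (0.41, adjusted p = 0.126) did not pass. Glycolysis was near the background of all genes, with 5 of 23 genes rising, 3 after rescaling, 0 in the keratin-free livers and 2 without MYC replicate 4. Slc2a1 (0.98), a glucose transporter, and Pkm (0.80) were among the 5. Ldha, lactate dehydrogenase, was 126 to 188 RPKM in MYC livers and 138 to 183 RPKM in WT livers (-0.01), and Hk2 did not pass (0.06). Of 76 respiratory chain subunits 2 rose, with a median of 0.01 that became -0.10 after rescaling. One of the 2 was Cox6b2, known as a testis form of a subunit of complex IV, at 2.23 to 4.41 RPKM against at most 0.819 RPKM. Proteasome subunits were similar, with 2 of 39 rising.

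Genes that take cells out of quiescence rose in part. Of 14 G1 cyclins, CDKs and CDK inhibitors 7 rose. Ccne1, cyclin E, was 12.7, 5.81, 5.82, 23.1 and 11.2 RPKM in the MYC livers and 1.04, 1.72, 1.69, 3.15 and 1.28 RPKM in the WT livers, without overlap, and rose by 2.07 (SE 0.37, adjusted p = 0.000415). Cdk4 (1.07), Cdk6 (1.17), Cdk2 (0.60) and Cdc25a (1.24) rose. The D-type cyclins did not pass, with Ccnd1 at 0.46 (adjusted p = 0.355) and Ccnd2 at -0.22 (adjusted p = 0.349). With sex in the fit Ccnd1 passed (0.64, adjusted p = 0.0328). Among CDK inhibitors Cdkn2c, p18, rose by 1.45, Cdkn2b (0.03) did not pass, and Cdkn2a was at most 0.200 RPKM and not tested. Of 12 E2F factors and pocket proteins 7 rose, among them E2f1 (1.55), E2f2 (1.86), E2f3 (1.09) and their partner Tfdp1 (1.68). Rbl2, the pocket protein p130 of quiescent cells, fell by 0.55. E2f8, a repressor made in S phase, had a change of -0.36 that did not pass (adjusted p = 0.437) except without WT replicate 2.

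DNA replication and histone genes rose almost throughout. Of 51 replication genes 49 rose, 40 at least 2-fold, with a median of 1.36. Mcm5, part of the replicative helicase, was 31.0, 16.1, 24.0, 40.7 and 30.4 RPKM in the MYC livers and 2.66, 0.577, 2.21, 2.47 and 2.87 RPKM in the WT livers. Its change was 3.23 (SE 0.32, adjusted p = 2.07e-06), and the lowest MYC liver was more than 5 times the highest WT liver. Gins2 (3.34), Mcm6 (2.85), Mcm2 (2.54), Prim1 (2.32), Pole (2.31) and Fen1 (2.21) rose alongside it. Pcna, the sliding clamp, was already at 51.6 to 55.7 RPKM in wild type and rose by 1.02. Of 57 replication-dependent histone genes 45 rose (median 1.62), and 45 of the 57 lay higher without overlap. These transcripts lack poly(A) tails, and the libraries here were made from total RNA. Hist1h1b, linker histone H1.5, rose by 3.48, from 3.01 to 8.26 RPKM in wild type to 42.2 to 140 RPKM. Many histone genes are near-identical in sequence, so the split of reads among single copies is uncertain.

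Mitotic genes changed most. Of 89 tested genes for G2 and mitosis 87 rose, 83 at least 2-fold, and 86 did not overlap, with a median of 2.48. Ccnb1, cyclin B1, was 79.8, 48.8, 62.2, 73.5 and 16.1 RPKM in the MYC livers and 1.12, 0.0969, 0.640, 1.86 and 2.07 RPKM in the WT livers. The change of 4.64 (SE 0.64, adjusted p = 3.12e-05) was the largest among the genes named by the rule. MYC replicate 5 was the lowest of the MYC livers for Ccnb1, and equally for Cdc20 (17.7 RPKM), Ckap2 (12.8 RPKM), Cdca3 (16.6 RPKM) and Ccnb2 (9.89 RPKM), yet still far above every WT liver. The 10 largest rises under the rule were all mitotic: Ccnb1, the APC/C activator Cdc20 (4.53), the spindle protein Ckap2 (4.43), Cdca3 (4.41), cyclin A2 or Ccna2 (4.00), topoisomerase Top2a (3.92), the proliferation marker Mki67 (3.90), the kinetochore protein Knstrn (3.76), Ccnb2 (3.73) and the mitotic kinase Pbk (3.71). Cdk1, the kinase that cyclin B activates, was 31.9, 17.6, 27.1, 45 and 13.5 RPKM against 1.62, 0.628, 0.634, 1.87 and 1.12 RPKM, a change of 3.61. Foxm1, a transcription factor of mitotic genes, rose by 1.89 from 0.342 ± 0.224 to 4.02 ± 1.13 RPKM (SD, n = 5). Plk1 (2.55) and Aurka (1.92), kinases of centrosome and spindle, rose as well. The count was 83 in the keratin-free livers, 85 after rescaling and 85 to 88 in the leave-one-out fits.

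**Figure D3:**
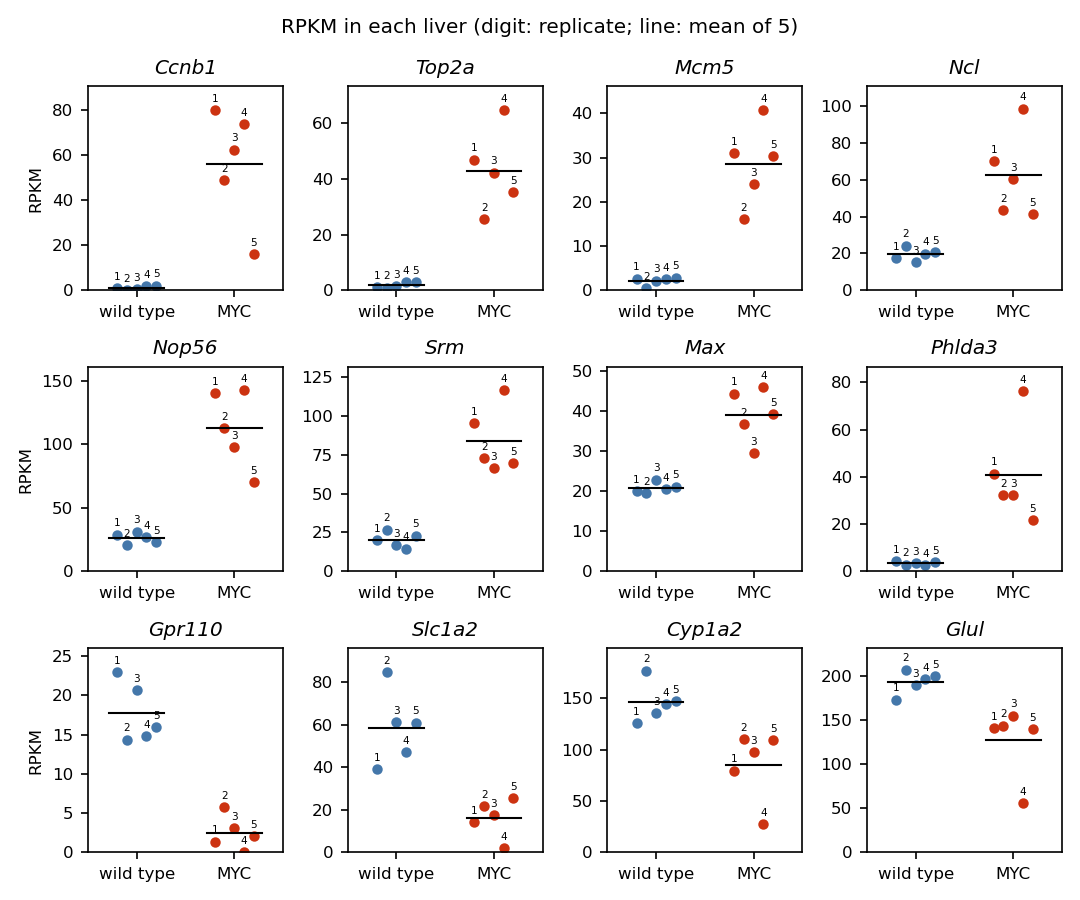
RPKM (y axis, linear, starting at 0) of 12 genes in each of the 5 wild-type (blue) and 5 MYC (red) livers, with the replicate number at each point and a line at each group mean. The groups do not overlap in any of the 12 panels; MYC replicate 5 is the lowest MYC liver for Ccnb1 (16.1 RPKM), and MYC replicate 4 is the lowest for Gpr110, Slc1a2, Cyp1a2 and Glul (55.9 RPKM).

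Promoter sequences were examined for 3 short motifs: CACGTG, the E-box that MYC and MAX are known to bind; CCAAT, bound by NF-Y; and TTTGAA, the core of the CHR element of cell cycle promoters. Windows of 250 bases before to 50 bases after the start were taken from RefSeq (GRCm38.p6) and matched 10346 of the 13273 tested genes, and both strands were searched (CACGTG is its own reverse complement). For 2050 genes with more than 1 window only the first was searched, so their other starts were not covered. CACGTG was found in 10.1% of all windows, in 12.5% of those of genes that rose, in 9.23% of those that fell and in 22.7% of the 75 windows of ribosome biogenesis genes. CCAAT was found in 39.2% of all windows and in 72% of the 75 windows of mitosis genes, and TTTGAA in 12.7% and 64%. Both of the latter motifs were present in 5.33% of all windows and in 50.7% of mitosis windows. A match in these windows is a description of letters, not a bound site. Of 9 growth genes with a window among those picked for ribosome, polyamine and nucleotide synthesis, 1 held CACGTG. That gene was Impdh2, and its window (chr9:108560186-108560485, plus strand) is shown with the E-box in capitals, its first base 110 bases before the start:
Impdh2: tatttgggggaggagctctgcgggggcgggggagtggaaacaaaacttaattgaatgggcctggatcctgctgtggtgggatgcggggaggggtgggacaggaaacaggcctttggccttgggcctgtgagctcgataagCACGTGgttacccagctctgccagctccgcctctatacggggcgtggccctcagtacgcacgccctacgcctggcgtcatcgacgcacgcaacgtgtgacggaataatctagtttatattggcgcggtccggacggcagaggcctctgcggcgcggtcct

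Of 6 mitosis genes with a window among those picked, all 6 held CCAAT and 5 held both motifs. The windows of Cdk1 (chr10:69352863-69353162, minus strand) and Top2a (chr11:99024140-99024439, minus strand) are shown 5′ to 3′ because these genes had the smallest adjusted p among those with both motifs. Capitals mark CCAAT or its reverse complement ATTGG, and TTTGAA or its reverse complement TTCAAA; Cdk1 has 3 of the first and 2 of the second, Top2a 6 and 2:
Cdk1: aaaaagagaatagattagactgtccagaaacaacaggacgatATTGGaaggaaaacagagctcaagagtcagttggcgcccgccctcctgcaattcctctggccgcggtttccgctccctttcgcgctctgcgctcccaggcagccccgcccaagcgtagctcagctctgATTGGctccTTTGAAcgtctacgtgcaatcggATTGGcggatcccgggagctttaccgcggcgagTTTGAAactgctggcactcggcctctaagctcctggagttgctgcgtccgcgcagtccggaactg
Top2a: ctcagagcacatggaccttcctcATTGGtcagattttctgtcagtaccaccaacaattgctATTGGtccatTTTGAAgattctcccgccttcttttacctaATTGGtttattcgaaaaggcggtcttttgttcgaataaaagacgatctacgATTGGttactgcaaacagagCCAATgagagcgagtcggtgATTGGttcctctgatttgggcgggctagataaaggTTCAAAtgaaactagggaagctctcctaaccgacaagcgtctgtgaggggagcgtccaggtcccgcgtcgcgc

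Repair and damage-response genes rose beside the replication genes. Of 28 genes for homologous recombination and the Fanconi pathway 22 rose, with a median of 1.24, among them Fancb (2.39), the checkpoint kinase Chek1 (2.37), Exo1 (1.92) and Brca1 (1.71). Of 22 genes of the p53 response 14 rose, with a median of 0.81, and 5 did so in the keratin-free livers. Phlda3, a p53 target that restrains AKT, was 41.4, 32.3, 32.1, 76.4 and 21.6 RPKM in the MYC livers and between 2.52 and 4.31 RPKM in the WT livers. It rose by 3.12 without overlap (adjusted p = 3.39e-07). Eda2r (2.95), a death-domain receptor, Aen (1.34), a nuclease, and Zmat3 (1.23) rose and kept their calls in the keratin-free livers. Mdm2, the ubiquitin ligase of p53, rose by 0.82 with overlap, and not in the keratin-free livers (0.57). Cdkn1a, p21, was 22.0 to 73.4 RPKM against 1.82 to 40.0 RPKM, and its change of 1.41 did not pass (adjusted p = 0.0596). It passed in the keratin-free livers (1.02), without MYC replicate 5 and without WT replicate 4.

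Apoptosis genes of the BCL2 family moved in both directions. Bax (1.45), Bid (1.06), Bbc3 (1.27) and Bak1 (0.71), which promote cell death, rose, and Bmf, a BH3-only protein that also does, fell by 1.34, so 4 of 15 rose and 1 fell. In the keratin-free livers 1 rose and none fell, and 2 rose without MYC replicate 1, MYC replicate 4 or WT replicate 5. Bbc3 did not pass without MYC replicate 1, MYC replicate 4 or WT replicate 5 (adjusted p up to 0.0545). Mcl1, a survival protein, was 87.9 to 124 RPKM against 91.2 to 112 RPKM (0.02).

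Most hepatocyte regulators and plasma protein genes did not pass. The core regulators Hnf4a (-0.20, adjusted p = 0.156) and Cebpa (-0.13, adjusted p = 0.412) did not pass, nor did Alb (-0.19) or Ttr (-0.24). Alb lies at a level where values were flattened, so changes of Alb and of other plasma protein genes that abundant may be understated. Of 22 hepatocyte transcription factors 5 fell, among them Ppara (-0.90), the regulator of fat oxidation, Onecut2 (-0.72) and Foxa3 (-0.58), and Esrra rose (0.71). The 5 falls became 1, Foxa3, in the keratin-free livers and 3 without MYC replicate 4 or WT replicate 2, and Esrra did not pass without MYC replicate 4, WT replicate 4 or WT replicate 5. Of 61 secreted plasma proteins 7 fell (11.5%, against 5.62% of all genes tested), and 3 of the 61 had a positive change. In other fits 13 fell after rescaling or without MYC replicate 3, and 1 fell in the keratin-free livers. The clotting factors F11 (-1.11) and F5 (-0.91) and the growth factor Igf1 (-0.87) had the largest falls. Igf1 was 51.5 to 116 RPKM in the MYC livers and 115 to 159 RPKM in the WT livers. None of 31 interferon-stimulated genes passed, although their median was 0.31, and of 21 acute phase genes 1 fell.

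The largest falls under the naming rule were led by Gpr110, an adhesion G protein-coupled receptor. Gpr110 was 1.36, 5.78, 3.12, 0.0628 and 2.05 RPKM in the MYC livers and 23.0, 14.3, 20.7, 14.8 and 16.0 RPKM in the WT livers. The groups were well apart, with a change of -2.66 (SE 0.36, adjusted p = 2.57e-05), and the value was -2.60 in the keratin-free livers. Slc1a2, the glutamate transporter of pericentral hepatocytes, was 14.2, 21.7, 17.5, 2.04 and 25.4 RPKM against 39.0, 84.8, 61.1, 47.2 and 61.0 RPKM. It fell by 2.06 (SE 0.47, adjusted p = 0.00328), with MYC replicate 4 far below the other MYC livers, and by 1.30 in the keratin-free livers. P2ry4, a nucleotide receptor, fell by 1.60, Cyp2d40 by 1.45, Csrp3, a LIM protein, by 1.39 and Vipr1, a receptor for vasoactive intestinal peptide, by 1.34. Lin7a (-1.33), the repressor Klf12 (-1.21), Crebrf (-1.20) and Gpcpd1 (-1.20), an enzyme of glycerophosphocholine breakdown, complete the 10. Vipr1 and Lin7a did not pass in the keratin-free livers, and Vipr1 did not pass in the fit of only the 10 livers (limma adjusted p = 0.0588).

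Drug-metabolising P450 genes fell in part. Of 45 tested members of families 1 to 3, 11 fell, none rose, and the median was -0.44. Only 5 fell without MYC replicate 4, 6 without MYC replicate 1 or WT replicate 4, 4 in the keratin-free livers and 18 after rescaling. In the fit of only the 10 livers 2 fell. The mean level of the list followed sex: 4.78 and 4.67 log2(RPKM + 1) in the male WT livers and 5.49 to 5.59 in the other WT livers. It was 3.93 to 4.62 in MYC replicates 1, 2 and 4, the males, and 5.19 to 5.30 in replicates 3 and 5. With sex in the fit 11 members again fell. Cyp1a2 was 79.3, 110, 97.2, 27.2 and 109 RPKM in the MYC livers and 126, 176, 135, 144 and 147 RPKM in the WT livers. Its ranges did not overlap (change -0.92, adjusted p = 0.0170), but the change in the keratin-free livers was -0.41 and did not pass. Cyp1a2 also did not pass in the fit of only the 10 livers. Cyp2d13 (-1.14), Cyp2d22 (-0.79) and Cyp2c44 (-0.64) also fell. Among 46 conjugating enzymes 7 fell and 2 rose, with Ugt2b37 at -1.43, Sult1b1 at -0.95, Gstm6 at -0.90 and Gsta1 at 2.03. The 7 falls became 4 without MYC replicate 1 or 4 and 3 in the keratin-free livers. The mean level of this list followed sex too: 4.43 and 4.46 log2(RPKM + 1) in the male WT livers and 5.04 to 5.19 in the other WT livers. In the male MYC livers it was 4.34 to 4.45, and in MYC replicates 3 and 5 it was 4.93 and 4.70.

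Lipid pathway genes fell in part. Of 23 cholesterol synthesis genes 11 fell, none rose, and the median was -0.44, with 9 to 12 falling in the leave-one-out fits and 2 in the keratin-free livers. Tm7sf2 (-1.04) and Hsd17b7 (-0.76), enzymes late in the pathway, and Stard4 (-0.64), a sterol carrier, fell most clearly. Tm7sf2 and Stard4 kept their calls in the keratin-free livers. Of 18 fatty acid synthesis genes 5 fell (2 without MYC replicate 4 or WT replicate 2, none in the keratin-free livers and 8 after rescaling), among them Acacb (-1.14), Fads1 (-0.88) and Elovl5 (-0.65), while Fasn did not pass (-0.27). Of 24 genes of bile acid synthesis and transport 6 fell, but 1 without MYC replicate 1, 2 without MYC replicate 4, 3 without WT replicate 1, 2 or 5, 1 in the keratin-free livers and 10 after rescaling. Cyp27a1, which starts the acidic pathway, fell by 0.64 and was the 1 that kept its call in the keratin-free livers. Cyp7a1, the rate-limiting enzyme of the classic pathway, ranged from 2.38 to 76.9 RPKM and from 21.7 to 131 RPKM and did not pass (-0.96, adjusted p = 0.291). In fat oxidation 4 of 32 genes fell, among them Ehhadh (-0.70) and Acsl1 (-0.56), and 2 rose, the thioesterases Acot1 (0.64) and Acot2 (1.30). Without WT replicate 5 there were 2 falls, and in the keratin-free livers none of the 32 passed. Acot1 did not pass after rescaling or in 8 of 10 leave-one-out fits (adjusted p up to 0.137).

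Genes of the pericentral zone fell in part. Of 23 pericentral genes and β-catenin targets 11 fell, with a median of -0.55, and 7 of the 23 lay lower without overlap between the groups. The count of falls was 5 without WT replicate 2, 6 without MYC replicate 1 or 4, 3 in the keratin-free livers and 4 in the fit of only the 10 livers. Glul, glutamine synthetase of the innermost hepatocytes, was 140, 144, 155, 55.9 and 139 RPKM in the MYC livers and 173, 207, 189, 196 and 200 RPKM in the WT livers. MYC replicates 1, 2, 3 and 5 were thus close together and replicate 4 far lower. The change was -0.68 (adjusted p = 0.0236), -0.32 in the keratin-free livers, and without WT replicate 2 the adjusted p was 0.0501. Oat (-1.02), Notum (-1.08), Gulo (-0.68) and Cyp27a1 (-0.64) fell too. Tbx3 (-0.96, adjusted p = 0.0395) and Cyp2e1 (-0.46, adjusted p = 0.0447) lost their calls in 7 and 8 of 10 leave-one-out fits, with adjusted p up to 0.127 and 0.142, both without MYC replicate 4. Glul, Tbx3 and Cyp2e1 did not pass in the fit of only the 10 livers. Axin2 (-0.26) and Lgr5 (-0.36), direct targets of β-catenin, did not pass. Of 27 urea cycle and periportal genes 2 fell, Tat (-0.57) and Aass (-0.42). This count was 5 without MYC replicate 3 or WT replicate 3, 0 without MYC replicate 1 or 4 or WT replicate 2 or 4, 1 without WT replicate 1, 0 in the keratin-free livers and 6 after rescaling. Cps1 (-0.20) and Sds (-0.35) did not pass. Whether the 2 zones differ in their change was not tested. In gluconeogenesis Pck1 fell by 0.74 and lost its call in 7 leave-one-out fits (adjusted p up to 0.107, without MYC replicate 4), and G6pc (-0.44, adjusted p = 0.114) did not pass. Pck1 also did not pass in the fit of only the 10 livers. G6pc passed after rescaling (-0.54, adjusted p = 0.0498) and with a keratin term in the fit (-0.55, adjusted p = 0.0411). Of 19 YAP/TAZ targets 1 rose and 1 fell, and Ctgf (0.24) and Cyr61 (0.07) did not pass. The falls of this list were 4 after rescaling or without MYC replicate 5. There were 0 falls without MYC replicate 1, 3 or 4 or WT replicate 2, 3 or 5. In the keratin-free livers 0 rose and 0 fell, and 0 rose without MYC replicate 1 or WT replicate 4.

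**Figure D4:**
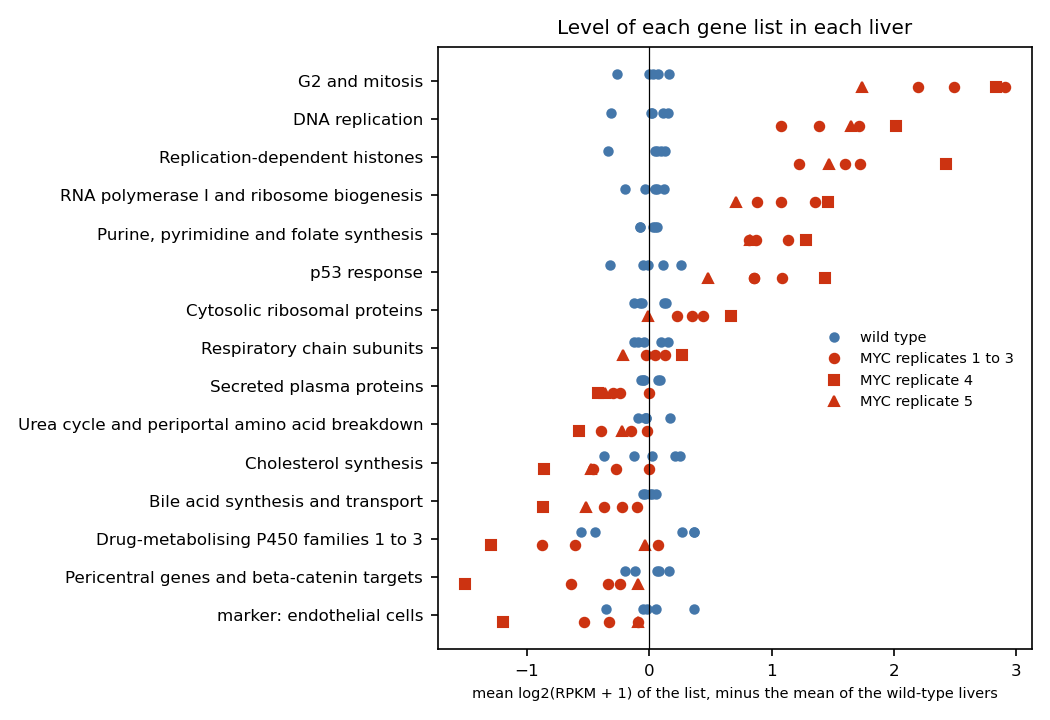
Each row is a gene list; points are the mean log2(RPKM + 1) of its members in each liver minus the mean of the 5 wild-type livers (x axis), in blue for wild type and red for MYC, with MYC replicate 4 as a square and replicate 5 as a triangle. MYC livers lie right of all wild-type livers for mitosis, replication, histones, ribosome biogenesis, nucleotide synthesis and p53 genes, and MYC replicate 4 is the lowest liver for pericentral genes (3.30 log2(RPKM + 1), against 4.17 to 4.72 in the other MYC livers).

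Markers of other cells moved with some of these results. Endothelial markers had 4 of 12 members lower, Ptprb (-0.91), Kdr (-0.80), Tek (-0.63) and Fcgr2b (-0.55), with summed levels of 149 to 338 RPKM in MYC and 268 to 447 RPKM in WT livers, none of the 12 at 0, and none called in the keratin-free livers. The count was 1 without MYC replicate 1 or WT replicate 3 and 6 without MYC replicate 3 or 5. The lowest endothelial list mean was again in MYC replicate 4 (3.35 against 4.01 to 4.46 in the other MYC livers). Of 12 markers of stellate cells and fibroblasts 3 rose, Acta2 (1.58), Tagln (1.46) and Col1a1 (1.19), known from activated cells, and 2 fell, Reln (-0.91) and Rgs5 (-0.87), with 1 rise without WT replicate 2. None of these 5 was called in the keratin-free livers, and the summed level was 203 to 299 RPKM against 261 to 278 RPKM. Of 13 macrophage markers Cd68 rose (0.92) and Cd163 fell (-0.97). Cd68 did not pass without MYC replicate 1 or 5 or WT replicate 2, Cd163 did not without MYC replicate 4 or WT replicate 3 or 4, and neither passed in the keratin-free livers. No tested marker of cholangiocytes, T and NK cells, B cells, neutrophils, erythroid cells or epidermis passed. The part of these cells in the changes above was not tested.

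The same MYC transgene was also measured in livers with an activated β-catenin allele (beta-cat Ex3), 5 with and 5 without MYC, which share no sample with the 10 livers above. In separate fits of 10 livers each, 1698 genes rose in MYC against WT and 2494 in MYC+Ex3 against Ex3. The 1482 shared rises were 87.3% of the first set and 59.4% of the second. Falls numbered 363 and 1016, with 223 shared, 61.4% and 22.0%. No gene called in the first was called the other way in the second. In the fit of all 20 livers 1 gene was called in opposite directions, 4933406I18Rik (0.50 and -0.47). There 2874 genes were called for MYC+Ex3 against Ex3 (21.7%), 16.9% of genes tested as higher and 4.8% as lower. In the limma test for a different MYC effect in the presence of Ex3, 0 genes passed. Of the 13273 genes, 115 had an unadjusted limma p under 0.05 in that test. That share is below the 0.05 given by p-values when no gene differs, so the test is conservative here. Its lack of calls does not show that both effects are equal. Mitotic and ribosome biogenesis genes rose in like numbers in both sets, 87 and 86 of 89, and 76 and 75 of 82. Slc1a2 had a change of -2.06 here and -0.56 there (adjusted p = 0.426), and Gpr110 -2.66 and -1.92. Pericentral genes had 11 falls here and 2 there, with medians of -0.55 and -0.24, and no single gene passed the test of that difference.

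**Figure D5:**
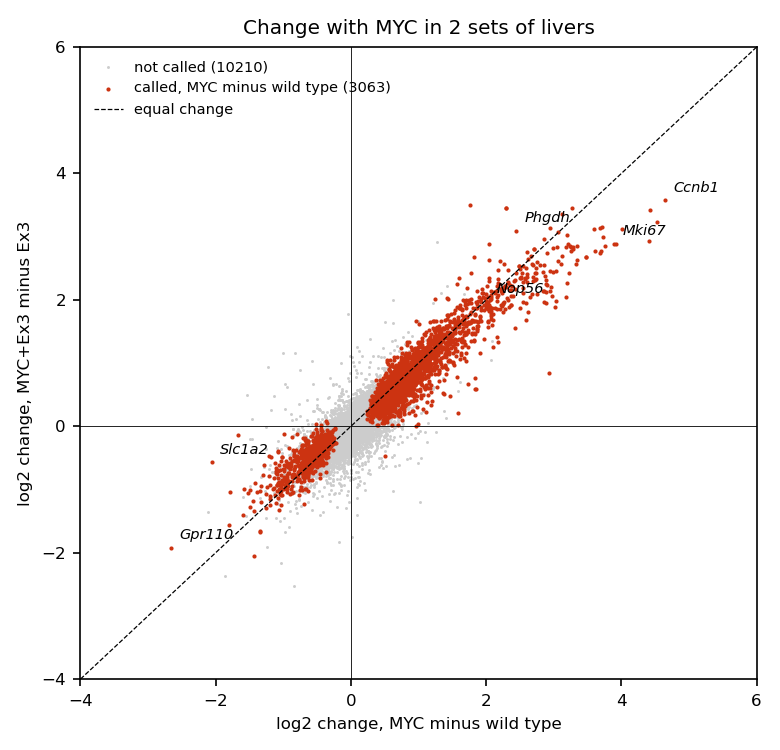
Each point is 1 tested gene, with the log2 change from wild type to MYC on the x axis and from Ex3 to MYC+Ex3 on the y axis; red points are the 3063 genes called in the first comparison and the dashed line marks equal change. Most red points lie near the line, with Ccnb1 at 4.64 and 3.58 and Gpr110 at -2.66 and -1.92.

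The authors' deposited table holds its own test of the same groups. Of 13636 genes with an adjusted p in the authors' deposited table, 2793 passed 0.05, 1700 higher and 1093 lower, so 60.9% were higher. Of the 3063 genes called by limma, 2343 (76.5%) were also called in the same direction in the authors' deposited table and 0 in the opposite direction.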

How the data were processed

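Total RNA from mouse livers was made into strand-specific libraries and sequenced, per the labels' protocols. Per the submitters' processing notes, TopHat2 2.0.8, TopHat, SAMtools, featureCounts 1.4.5-p1, DESeq2 and the mm9 build were used, with roles and settings not given in the sources used here. The deposited values are RPKM per gene, made by the authors, and a log2 fold change with an adjusted p-value for each of the authors' comparisons. The log2 fold changes and p-values of the authors' deposited table were used only where that table is named. RPKM of a gene were whole multiples of 1 read (tolerance 0.001) for 100% of the 20263 genes above 0 in the 20 AAV livers, which gave the reads per library. Every column used is of a sample of the series (0 were of others).

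The main test was limma 3.58.1 (R 4.3.3) on log2(RPKM + 1), two-sided, with an empirical Bayes trend and Benjamini-Hochberg adjustment over all 13273 genes. It was fitted over the 20 AAV livers of 4 groups, which share 1 estimate of spread, and a gene was called at an adjusted p under 0.05. Labels give each animal its own identifier but no litter or batch. Sex was read from Xist and Ddx3y. Named genes are the 10 largest rises and 10 largest falls among genes that were called, averaged 5 RPKM or more over the 10 livers and did not overlap between groups (predicted genes, clones, small RNAs and pseudogenes left out), the leading genes of the lists, and Myc, Ccnb1, Ncl and Gpr110. Other members were named as examples after their values were seen. The members, lists and markers were chosen with earlier results of these data known. Printed promoters were, by the smallest adjusted p, the first leading genes with the motifs. The scripts were tested on simulated data. Alternatives were another pseudocount (0.1), no filter, a filter at an RPKM of 5, rescaling by median ratios, a fit of only the groups compared, keratin and sex terms, keratin-free livers only, sample weights, a 2-fold minimum and leaving out each liver. A fit without MYC replicates 4 and 5 was added after seeing the data. Values of a few member genes are not reported here, although the list counts include them.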

Additional observations from a re-analysis of the deposited data

Results flagged for a closer look

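In a group of 5, a liver was singled out when its gap to the nearest other liver exceeded 0.71 of the group's range (Dixon's 95% value). Of 272 groups examined, 23 were singled out, and chance gives about 1 in 20. MYC replicate 4 was low for Glul (55.9 RPKM, the other MYC livers 139 to 155) and high for Ppat (61.5), Krt5 (2.51), Krt14 (1.02), Krt17 (0.874) and the level of the epidermis markers (2.55 log2(RPKM + 1)). MYC replicate 5 was low for Ccnb2 (9.89 RPKM, the others 39.6 to 49.9) and high for Mycn (9.43 RPKM, the others at most 0.585) and Hk2 (4.23). MYC replicate 3 was high for E2f8 (13 RPKM) and Cps1 (225), and MYC replicate 1 for Aurka (34.7).

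Among wild-type livers replicate 2 was low for Cdca3 (0.151 RPKM), Mcm5 (0.577) and Pcna (51.6). Its list levels, in log2(RPKM + 1), were low for the aminoacyl-tRNA synthetases (4.54), the histones (3.34) and the interferon-stimulated genes (3.42), and high for the periportal genes (7.07). WT replicate 1 was high for E2f1 (4.36 RPKM), Mdm2 (22.3) and Bbc3 (15.3). WT replicate 3 was the only WT liver with Cdkn2a above 0 (0.145 RPKM).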

How the results depend on the processing

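For MYC against WT the count of 3063 genes fell to 1250 in the keratin-free livers (4 MYC and 2 WT) and to 867 with a 2-fold minimum, and ran from 2253 (without MYC replicate 1) to 3485 (without MYC replicate 5) in the leave-one-out fits. With a keratin term in a fit that kept all livers it was 3591 (2433 higher, 1158 lower). In that fit 54 cytosolic ribosomal proteins rose, and 11 genes fell in each of the pericentral, cholesterol and P450 lists. Bile acid genes had 5 falls there, and the urea cycle and periportal list had 1. Without MYC replicates 4 and 5, a setting chosen after seeing the data, the count over all genes was 2147 (1788 higher, 359 lower). The fit of only the 10 livers gave 2061 calls, 1698 higher and 363 lower. In that fit 2 P450, 4 pericentral, 8 cholesterol and 4 plasma protein genes fell. No endothelial marker and no gene of the urea cycle and periportal list fell there. Rises there numbered 85 in the mitosis list, 72 in the ribosome biogenesis list and 11 among cytosolic ribosomal proteins. For MYC+Ex3 against Ex3 the 2874 calls became 6713 with sample weights and 842 with a 2-fold minimum, and 2756 to 3388 when a MYC or WT liver was left out. The difference of both effects gave 0 calls in every setting in which it was fitted, which the fit of only the groups compared could not give. Of 52 named genes called, 40 kept their call in every setting in which they were tested (32 higher, 8 lower), and none reversed. With the keratin term 50 of the 52 kept their call, all but Cyp2e1 and Pck1. In the fit of only the 10 livers 46 kept theirs, all but Vipr1, Cyp2e1, Cyp1a2, Pck1, Glul and Tbx3. Those lost in the keratin-free livers were Vipr1, Lin7a, Odc1, Phgdh, Mdm2, Bbc3, Bmf, Cyp2e1, Cyp1a2, Pck1, Glul and Tbx3; that fit changes both keratin and the number of livers, and the cause was not tested. No paired analysis was possible because the replicate numbers only count the records of a group, and same-numbered livers are different animals. Genes near 1 RPKM rest on few reads, and flattened values limit what can be seen in the most abundant genes.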

Other observations

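Genes outside the lists added further groups. Those named were picked, after their values were seen, from the genes with the smallest adjusted p in each direction. Some genes with a smaller adjusted p were left out. Hpdl, a mitochondrial dioxygenase, was 7.53 to 40.5 RPKM in the MYC livers and at most 0.420 RPKM in the WT livers (change 3.60). Stmn1, stathmin, which destabilises microtubules, was at least 73.3 RPKM in the MYC livers and 8.26 to 12.7 RPKM in the WT livers (3.17). Nt5dc2 (2.89) and Bzw2 (2.33) rose too, as did Prmt1 (1.92), the main arginine methyltransferase. H2afx, the histone variant phosphorylated at DNA breaks, rose by 2.36. Among the falls were Ulk1 (-1.13) and Ulk2 (-0.82), kinases that start autophagy, and Trp53inp2 (-1.16), an autophagy factor. The cytokine receptor Lifr (-1.08), the thyroid hormone receptor Thrb (-0.81) and the insulin receptor Insr (-0.64) fell too, the last from 40.9 to 60.0 RPKM in the WT livers to 21.2 to 36.1 RPKM. Thrb and Insr did not pass in the keratin-free livers (adjusted p = 0.0531 and 0.0853).

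Of 10 tested non-coding RNAs that host small nucleolar RNAs, Gas5 and those named Snhg, 8 rose and none fell. Gas5 (1.16), Snhg1 (1.61), Snhg7 (1.74) and Snhg12 (1.4) also rose in the keratin-free livers. Snhg3 (1.80), Snhg6 (0.93), Snhg8 (0.82) and Snhg9 (1.14) did not pass there, and Snhg10 (0.80, adjusted p = 0.125) and Snhg14 (0.65, adjusted p = 0.138) did not pass with all livers. Terc, the RNA of telomerase, was 74.5 to 204 RPKM in the MYC livers and 36.2 to 68.8 RPKM in the WT livers (1.14). The RNase RNAs Rpph1 (-0.03) and Rmrp (-0.01) did not pass, but both are among the flattened genes. Rpph1 held 451 to 485 reads in the MYC livers and 414 to 481 in the WT livers. Rmrp held 387 to 407 and 328 to 401 reads, while depth ran from 4.38 to 6.69 M reads. A change in these 2 RNAs may therefore not be visible.

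MYC replicate 5, with a female level of Xist, also held Eif2s3y at 2.71 RPKM and Uty at 0.731 RPKM, where the other Xist-high livers had at most 0.127 and 0.167. Kdm5d, also on the Y chromosome, was 0.747 RPKM there and 0.719, 0.945, 0.846 and 1.081 RPKM in the other Xist-high livers, so it was not raised.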
